A study of Drosophila melanogaster with 63 samples.

Results

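Chromatin binding was described at 10 germline and piRNA pathway genes of Drosophila melanogaster: piwi, aub, AGO3, vas, osk, nos, bam, bgcn, cuff and del. They were chosen by function among the 13922 protein-coding genes annotated on the 6 main chromosomes. A gene's window was its Release 6 span with 500 bp added on either side, and a peak belonged to it when they shared at least 1 bp. All 10 genes were found in the annotation, and their windows held 289 peaks over 46 peak lists.

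The study asked how NURF301 and the proteins of the gypsy insulator depend on each other for binding, by chromatin immunoprecipitation and sequencing (ChIP-seq) in Kc167, a female line from Drosophila embryos. For each knockdown, dsRNA (5 ug) against the named gene was transfected and the cells were grown for 4 days. Nurf301 knockdown cells gave 3 libraries each for NURF301, CP190 and Su(Hw). Cp190 knockdown cells gave 2 each for NURF301 and CP190. Cells of the su(Hw) knockdown gave 3 each for NURF301, CP190 and Su(Hw). Kc-MOD-GFP cells, labelled as transfected, gave 3 libraries with an antibody against GFP. Mock cells carried no named dsRNA and form 2 series, mock and mock2, each with 3 libraries for NURF301, CP190 and Su(Hw), and mock with 3 more for Mod(mdg4)67.2. The mock2 titles are numbered like those of the su(Hw) knockdown and the mock titles like those of the other knockdowns. Nothing in the labels says that libraries of a group came from separate cultures, so their spread may be technical. Each fold enrichment below is the authors' value for the summit of a peak, and its percentile is its rank within its own list. Both were used to describe a list and not to compare lists.

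NURF301 is the large scaffold subunit of NURF, an ATP-dependent complex that slides nucleosomes. Su(Hw) binds DNA at the gypsy insulator, where CP190 and Mod(mdg4)67.2 join it. CP190 also lies at many promoters without Su(Hw). The 10 genes act mainly in the germline. Piwi, Aubergine and Argonaute 3 are the Argonaute proteins that carry piRNAs, small RNAs that silence transposons, and Piwi acts in the nucleus and also in somatic cells of the ovary. Vasa is a helicase of the germ granule, Oskar nucleates the pole plasm, and Nanos represses translation in germ cells. Bam and its partner Bgcn drive the daughter of a germline stem cell towards differentiation. Cutoff and Deadlock bind Rhino at piRNA clusters and allow their transcription. The files hold no expression values, so whether these genes are transcribed in Kc167 was not analysed here.

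The lists differed in length, which stands here for their depth because read numbers are not given in the sources used here. Each targeted protein had fewer peaks in its own knockdown. NURF301 lists held 253, 3 and 25 peaks in the Nurf301 knockdown, against 4612 to 8234 over the 6 mock libraries. CP190 lists held 1207 and 1286 in the Cp190 knockdown, against 10115 to 10578 in mock and 5990 to 8828 in mock2. For Su(Hw) the lists had 74, 77 and 97 peaks in the su(Hw) knockdown, against 3993 to 5360 over the 6 mock libraries. A shorter list leaves fewer genes with a peak at any locus. The part of list length in the differences below was not tested, and the share of all genes is given beside each count.

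In mock cells NURF301 lay at all 10 genes and CP190 at 8 of them. A gene was called bound when 4 or more of the 6 mock libraries had a peak in its window; for Mod(mdg4)67.2 and GFP, with 3 libraries each, 2 or more were required. NURF301 had a peak at all 10 genes in each of its 6 mock libraries, while 58.8% of all protein-coding genes were bound. CP190 was bound at piwi, vas, osk, nos, bam, bgcn, cuff and del, each with a peak in all 6 libraries, and 57.0% of all genes were bound. It was not bound at aub or AGO3. Both proteins were bound at 8 of the 10 genes and at 51.9% of all genes. Counted only within 500 bp of a gene end, NURF301 lay at all 10 (55.9% of all genes) and CP190 at 8 (52.8%). Su(Hw) was bound at 0 of the 10 (15.5% of all genes), Mod(mdg4)67.2 at 0 (9.73%) and GFP at 0 (9.54%). These 8 genes therefore carried NURF301 and CP190 without bound Su(Hw) or Mod(mdg4)67.2, a combination found at 41.6% of all genes. Members' counts and shares of all genes are given side by side with no test, since the members are no sample of genes.

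**Figure D1:**
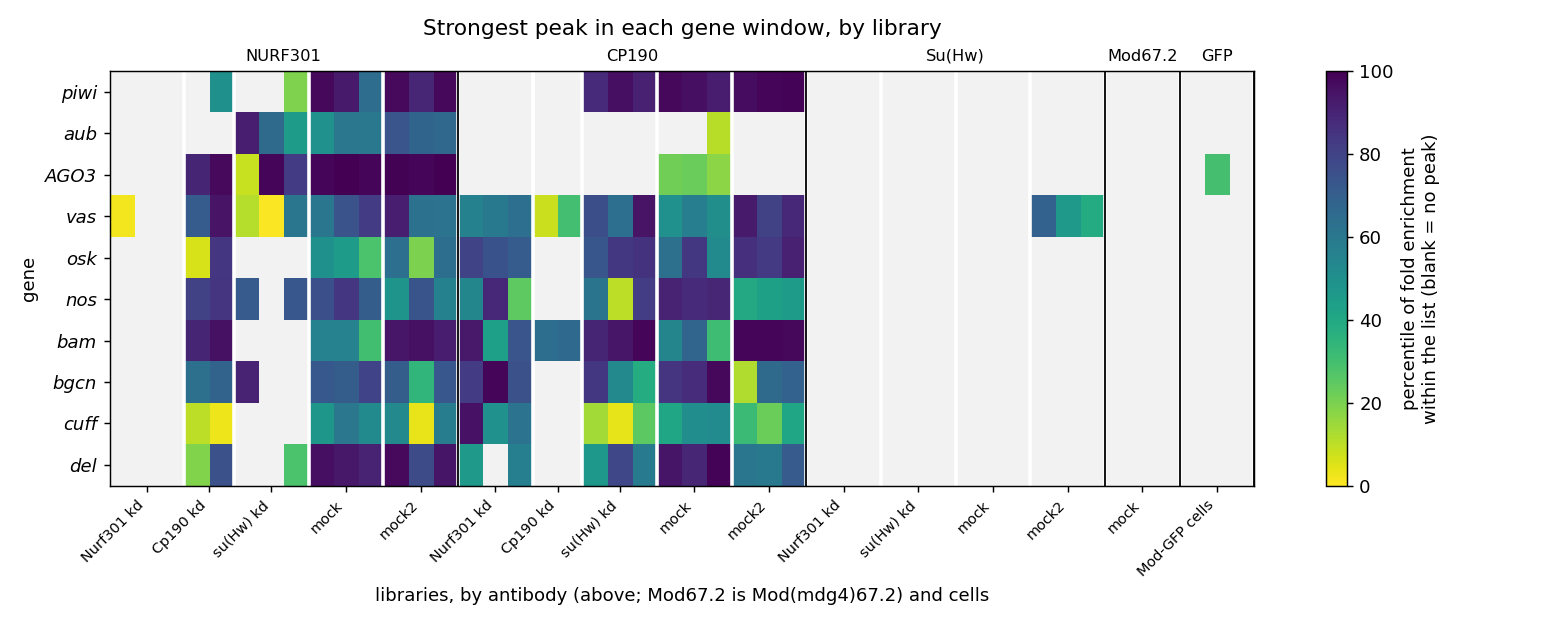
Strongest peak in the window of each gene (rows) in each of the 46 libraries (columns, by antibody and cells), coloured by the percentile of its fold enrichment within its own list; blank cells have no peak. The NURF301 columns of both mock series are filled at all 10 genes. The CP190 columns are filled at 9 or 10 genes in mock and at 8 in mock2. The Su(Hw) and Mod(mdg4)67.2 columns are blank except for Su(Hw) at vas in mock2.

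Among the Argonaute genes, piwi carried both proteins at 2 sites that ranked apart. Its strongest NURF301 peak had a fold enrichment of 13.3, 10.2 and 9.8 in mock and 17.4, 7.69 and 17.0 in mock2. Its strongest CP190 peak had 19.5, 16.1 and 12.1 in mock and 34.3, 22.9 and 34.3 in mock2, between the 92.4th and the 98.8th percentile of their lists. The strongest NURF301 peak stood between the 64.2nd and the 97.8th. One site lay inside the gene (2L:10985749-10986669), 1201 bp from the nearer gene end, and its NURF301 and CP190 summits were 8.5 bp apart in the median. The other (2L:10987297-10988144) reached over the end of piwi, but its median summit was only 59 bp from the end of the neighbouring gene CG12253. The inner site was present in all 12 NURF301 and CP190 mock libraries and the other in 5 of 6 for each protein. At the outer site CP190 peaks stood between the 1.24th and the 34.7th percentile and NURF301 peaks between the 18.3rd and the 79.5th.

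NURF301 marked aub without CP190. At its only site (2L:11001218-11001787), 35 bp from an end of aub, NURF301 had folds of 5.97, 6.47 and 9.35 in mock and 10.1, 6.05 and 8.87 in mock2. CP190 had a peak there in 1 of 6 mock libraries, with a fold of 3.85 at the 10.7th percentile of its list.

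AGO3 spans 135048 bp, more than 99.7% of the annotated genes, and held 11 of the 24 sites into which the peaks of all members merged. Its strongest NURF301 peak stood between the 98.5th and the 99.6th percentile in all 6 mock libraries, with folds of 14.5, 17.3 and 22.9 in mock and 23.6, 11.1 and 22.6 in mock2. In 5 of these libraries that peak lay at the site that reaches over an end of the gene (3L:23688739-23690635). A site near the other end (3L:23554294-23556414) had NURF301 in all 6 as well. No CP190 library had a peak at either site. The CP190 peaks of AGO3 were inside the gene, 2 in each of the 3 mock libraries between the 1.33rd and the 23.0th percentile, and none in the 3 shorter mock2 lists. GFP had peaks inside AGO3 in replicate 2 alone, at 4 sites with folds of 2.52 to 3.18. Those GFP lists reach down to a -log10 q of 1.34, against at least 6.0 in the lists of the other antibodies.

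Of the pole plasm and germ cell genes, vas held 3 sites. The inner one (2L:15067464-15068439) lay 6180.5 bp from the nearer end of vas, in the region that also holds vig and solo, and carried NURF301 and CP190 in all 12 mock libraries. Beside the gene (2L:15060392-15061857), NURF301 summits lay mostly 45 to 79 bp beyond the end of vas. Most CP190 summits there lay 784 to 831 bp beyond it, close to the neighbouring gene TfIIS. One mock2 library also had a NURF301 peak at that place, with a summit 839 bp beyond the gene. In the other 5 mock libraries a NURF301 peak there began 509 to 556 bp beyond the gene, just outside the window, at the 68.5th to the 90.1st percentile. The distance of 728.5 bp between the median NURF301 and CP190 summits counted for that merged site therefore depends on the 500 bp margin. The third site was that of Su(Hw), described below.

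At osk and nos a single site carried both proteins in all 12 mock libraries. The osk site (3R:8938246-8939437) had CP190 folds of 9.83, 12.3 and 7.44 in mock and 20.8, 12.4 and 20.7 in mock2. Its median summit lay 242 bp from an end of osk and 87 bp from an end of ScsbetaA. The nos site (3R:19156509-19157374) lay 371.5 bp from an end of nos. Its CP190 peak stood at the 88.1st to the 90.4th percentile in mock and at the 39.8th to the 45.3rd in mock2.

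Bam and bgcn, whose products act together, both had shared sites. The bam site (3R:25244939-25246161) lay 498 bp beyond the gene and 348 bp from the ribosomal protein gene RpS27. Its CP190 peak had folds of 8.91, 9.92 and 5.74 in mock, at the 30.9th to the 67.4th percentile, and of 40.1, 22.9 and 31.5 in mock2, at the 98.0th to the 98.5th. NURF301 at bam stood at the 30.2nd to the 55.7th percentile in mock and at the 92.6th to the 95.5th in mock2. The mock CP190 lists were longer than those of mock2, so these ranks are given for each list alone. At bgcn 1 site lay inside the gene (2R:23856625-23857280), 44 bp from an end of Pym, and 1 at its end (2R:23858490-23859090), 115 bp from it and shared with the window of TBPH. NURF301 lay at both in all 6 mock libraries, and CP190 at the first in 6 and at the second in 5.

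The piRNA cluster genes cuff and del differed in rank. At cuff the only site (2R:11885315-11886268) was 46 bp from an end of CG13185 and 436 bp from one of cuff. In the mock libraries its CP190 peaks stood at the 22.5th to the 51.9th percentile and its NURF301 peaks at the 3.52nd to the 60.3rd. At del the only site (2L:21148070-21149495) was 90 bp from an end of del and lay in no other gene's window. Its strongest NURF301 peaks had folds of 11.8, 10.4 and 14.1 in mock and 17.1, 6.58 and 14.3 in mock2, at the 76.7th to the 97.4th percentile. Its strongest CP190 peaks stood at the 59.6th to the 99.2nd.

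Outside AGO3 the peaks merged into 13 sites, and 8 of these lay nearer to an end of another gene than to one of the member. They were the outer piwi site, all 3 vas sites, the osk, bam and cuff sites and the inner bgcn site. The sites nearest to a member's own end were those of aub, nos and del, the inner piwi site and the outer bgcn site. A peak at such a place cannot be given to either gene by position. Over all 24 sites NURF301 had a peak in at least 4 of 6 mock libraries at 18 and CP190 at 11. Each of these 11 also carried NURF301, 7 carried NURF301 only and 0 carried CP190 only. At the 11 shared sites the median distance between NURF301 and CP190 summits was 25 bp, against 19.5 bp at 5372 shared sites over the genome, whose quartiles were 8 and 44.5 bp.

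**Figure D2:**
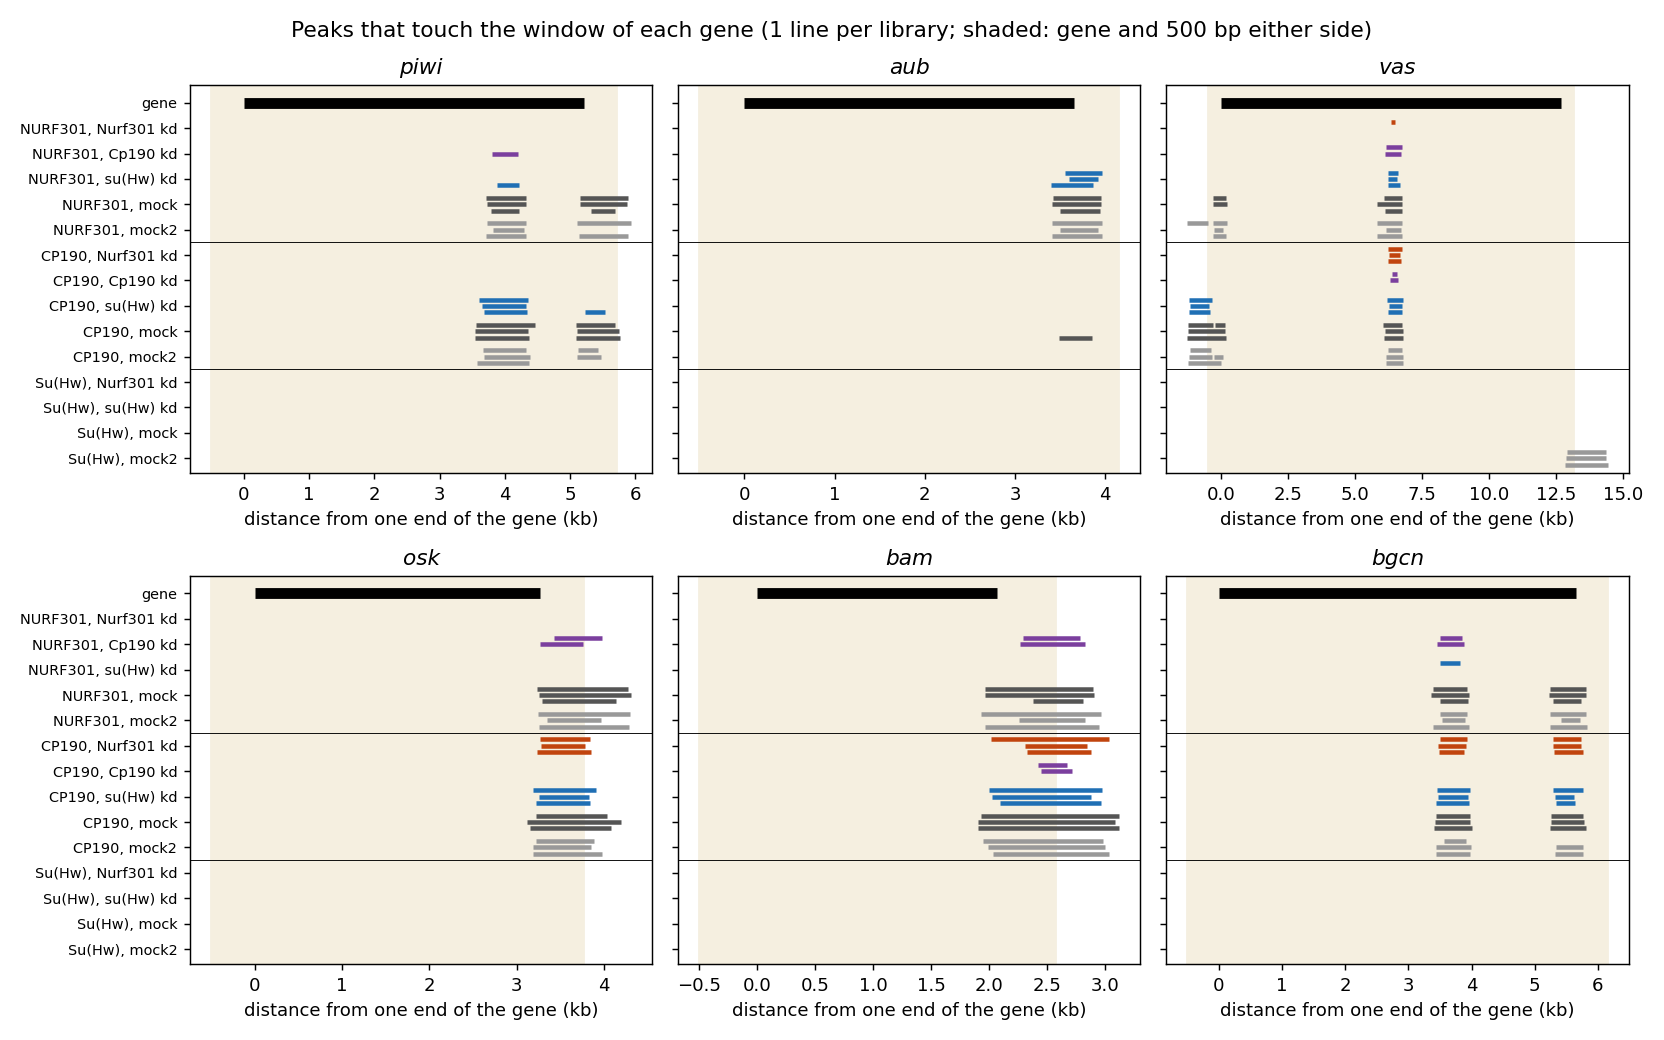
Peaks that touch the window of 6 genes, 1 line per library from the start to the end of the peak, against the distance in kb from one end of the gene; the black bar is the gene and the shading its window. NURF301 lines are absent in the Nurf301 knockdown rows except 1 at vas, while the CP190 lines of vas, osk, bam and bgcn remain in those rows.

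Su(Hw) lay just outside the windows of vas and bam. Beside vas it had a peak in 3 of 3 mock and 3 of 3 mock2 libraries, with summits 1134 to 1153 bp beyond the gene end. The edges of the peaks began 705 to 760 bp beyond the gene in mock and 179 to 245 bp in mock2, so only mock2 counted within 500 bp. Both series thus had the peak, and its edge decided whether it counted. Beside bam, a site on the side away from RpS27 (3R:25241084-25242064) began 975 to 1347 bp beyond the gene. It held Su(Hw) in 6 of 6, CP190 in 6 of 6 and Mod(mdg4)67.2 in 3 of 3 mock libraries, GFP in 2 of 3 and NURF301 in 1 of 6. Su(Hw) there had folds of 29.5, 25.6 and 34.7 in mock and 11.4, 8.49 and 8.80 in mock2. At the other members the nearest Su(Hw) peak was at least 4654 bp beyond the window at osk and 9826 bp at aub. At AGO3 it was at least 83463 bp away.

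After Nurf301 knockdown, 9 members had no NURF301 peak in any library. Piwi, aub, AGO3, osk, nos, bam, bgcn, cuff and del had a peak in 0 of 3 knockdown and 6 of 6 mock libraries (two-sided Fisher exact test p = 0.0119, adjusted p = 0.0164 over 7894 genes). Over all genes tested 72.8% were called lost, and 94.8% of the genes bound in mock cells had no peak in any knockdown library and 0.0% one in each. The antibody was directed at the depleted protein. With no margin 5 members were called, and 8 when peaks under a -log10 q of 20 were left out. At vas 1 of 3 knockdown libraries kept a peak at the inner site, with a fold of 3.7 at the 1.58th percentile of its list, against 6 of 6 mock libraries (Fisher exact p = 0.0833). Per library 0.333 ± 0.577 members had a peak after knockdown (SD, n = 3) and 10 ± 0 in mock cells (SD, n = 6), beside 1.06% ± 1.69 and 56.1% ± 6.46 of all genes.

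Within 500 bp of the gene, CP190 kept peaks at most members in the same cells, and piwi had none. Vas, osk, nos, bam, bgcn and cuff had a CP190 peak in 3 of 3 Nurf301 knockdown libraries, and del in 2 of 3, against 6 of 6 mock libraries for each. At osk the folds were 11.6, 7.92 and 8.33 in the knockdown, against 9.83, 12.3 and 7.44 in mock and 20.8, 12.4 and 20.7 in mock2. At bgcn they were 12.1, 13.8 and 8.72, against 13.0, 13.0 and 14.5 in mock and 5.54, 9.26 and 12.4 in mock2. Piwi had 0 of 3 knockdown and 6 of 6 mock libraries with a peak. Its inner site had CP190 in 6 of 6 mock libraries and its outer site in 5 of 6. For piwi the unadjusted Fisher exact p was 0.0119 and the adjusted p 0.0639, so it was not called. By this test 0 of 2551 genes were called (0.0%), with 1085 below 0.05 unadjusted, and the lowest adjusted p was 0.0639. Without mock replicate 1, 2 or 3, or without mock2 replicate 1, piwi was called. Of the 7937 genes bound by CP190 in mock cells, 17.4% had no peak in any knockdown library and 58.4% had one in each. Among the 8 bound members the counts were 1 and 6. Many of these peaks lay beside the gene and not over it. With no margin vas and bgcn kept CP190 in 3 of 3 knockdown libraries, osk in 2, bam, cuff and del in 1 each and nos in 0, against 6 of 6 mock libraries for all of these but cuff (5) and nos (3). The knockdown lists held 4091 to 5465 CP190 peaks.

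The site beside vas, near TfIIS, shows how the 500 bp margin enters. CP190 peaks of all 3 Nurf301 knockdown libraries began 512 to 598 bp beyond the gene end and fell just outside the window, against 6 of 6 mock libraries with a peak of that region inside. In the gene-bound count vas was kept through its inner site, where CP190 had folds of 8.9, 6.77 and 7.78 in the knockdown, against 7.39, 8.9 and 7.32 in mock and 11.1, 7.12 and 12.9 in mock2. Beside bam, the outer Su(Hw) site kept Su(Hw) and CP190 in 3 of 3 knockdown libraries each, against 6 of 6 mock libraries each. Su(Hw) folds there were 7.65, 5.52 and 18.8 in the knockdown, against 29.5, 25.6 and 34.7 in mock and 11.4, 8.49 and 8.80 in mock2. The Su(Hw) peak beside vas was in 1 of 3 knockdown libraries, against 6 of 6 mock libraries. Its fold was 5.29, at the 1.84th percentile, against 17.7, 17.7 and 14.7 in mock and 8.19, 6.51 and 4.72 in mock2. Within the windows Su(Hw) had a peak at 0 members in the knockdown and at 0.5 ± 0.548 per library in mock cells (SD, n = 6). Vas was the only member tested, with Su(Hw) in 0 of 3 knockdown and 3 of 6 mock libraries. At that mock count a loss could not pass (Fisher exact p = 0.464). No member was called, but none could have been called lost. Of all 498 genes tested 28.9% were called.

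After Cp190 knockdown CP190 was gone from 6 members and stayed at vas and bam. Piwi, osk, nos, bgcn, cuff and del had a peak in 0 of 2 knockdown and 6 of 6 mock libraries (Fisher exact p = 0.0357, adjusted p = 0.0366 over 4813 genes). Over all genes tested 97.7% were called lost, and 0.0357 is the smallest p that 2 against 6 libraries can give. A gene with CP190 in every knockdown and mock library, such as vas or bam, could not be tested. The share of 97.7% leaves such genes out and so depends on which genes could be tested. Leaving out mock replicate 1, 2 or 3 of CP190 took the calls to 0 genes, members included. At bam CP190 kept a peak in 2 of 2 libraries, with folds of 11.2 and 10.6 at the 63.9th and the 65.7th percentile, against 6 of 6 in mock cells. At the inner vas site it kept folds of 5.0 and 6.44, against 7.12 to 12.9 over the 6 mock libraries. Of all genes bound by CP190 in mock cells 16.5% had a peak in both knockdown libraries and 80.1% in neither. The counts among the 8 bound members were 2 and 6. With no margin vas alone kept CP190 in 2 of 2 libraries and bam had it in 0, against 6 of 6 mock libraries for both.

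Within 500 bp of the gene, NURF301 kept a peak at 8 members in the Cp190 knockdown. AGO3, vas, osk, nos, bam, bgcn, cuff and del had one in 2 of 2 knockdown libraries and 6 of 6 mock libraries. At bam the folds were 9.1 and 12.5 in the knockdown, against 6.43, 6.08 and 6.97 in mock and 14.4, 8.99 and 13.5 in mock2. Some kept peaks ranked low in their lists. At cuff the folds were 4.16 and 3.81, at the 10.0th and the 2.49th percentile. They were 5.77, 6.46 and 8.74 at cuff in mock and 7.66, 3.17 and 8.01 in mock2. The osk peaks stood at the 6.2nd and the 84.1st percentile and the strongest del peaks at the 19.0th and the 75.2nd. With no margin AGO3, vas, bgcn and del kept NURF301 in 2 of 2 libraries, against 6 of 6 in mock cells. Osk then had it in 1 of 2, and nos, bam and cuff in 0 of 2, against 4 of 6 mock libraries for osk, nos and bam and 5 of 6 for cuff. Aub had 0 of 2 knockdown and 6 of 6 mock libraries (Fisher exact p = 0.0357, adjusted p = 0.084), and piwi 1 of 2 and 6 of 6. At piwi the remaining peak was the inner one, with a fold of 6.66. No gene of 776 tested was called (0.0%), with 330 below 0.05 unadjusted. Among all genes bound by NURF301 in mock cells 69.2% had a peak in both knockdown libraries and 19.0% in neither. Aub is one of the members where CP190 was not bound in mock cells. At nos, where NURF301 stayed and CP190 did not, the NURF301 folds were 7.76 and 9.44 in the knockdown, against 8.12, 8.65 and 10.5 in mock and 7.1, 6.41 and 7.82 in mock2.

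After su(Hw) knockdown NURF301 was lost from osk, bam and cuff. Each had a peak in 0 of 3 knockdown and 6 of 6 mock libraries (Fisher exact p = 0.0119, adjusted p = 0.0271 over 3819 genes), and 43.9% of the genes tested were called lost. No Su(Hw) peak lay within 500 bp of these 3 genes in mock cells. The outer Su(Hw) site beside bam lay beyond that margin, with peaks that began 975 to 1187 bp from the gene. Su(Hw) was there in 6 of 6 mock libraries and in no library of this knockdown. Aub, AGO3 and vas kept a NURF301 peak in 3 of 3 knockdown libraries, nos in 2, and piwi, bgcn and del in 1, against 6 of 6 mock libraries for each. At aub the folds were 7.18, 5.19 and 4.42 in the knockdown, against 5.97, 6.47 and 9.35 in mock and 10.1, 6.05 and 8.87 in mock2. At the inner vas site they were 3.72, 2.69 and 4.9, against 6.59, 6.9 and 12.3 in mock and 9.2, 5.81 and 8.41 in mock2. Those vas knockdown peaks stood at the 11.05th, the 0.509th and the 60.6th percentile. The strongest AGO3 peaks had 3.59, 8.38 and 5.95, against 14.5, 17.3 and 22.9 in mock and 23.6, 11.1 and 22.6 in mock2. For piwi, bgcn and del the Fisher exact p was 0.0833 each, which could not pass. Per library 4.67 ± 1.53 members had a peak in the knockdown (SD, n = 3) and 10 ± 0 in mock cells (SD, n = 6), beside 22.7% ± 1.51 and 56.1% ± 6.46 of all genes. Among all genes bound in mock cells, 44.1% had no peak in any knockdown library and 22.0% had one in each, and among the 10 members the counts were 3 and 3. With no margin around the genes, 0 members were called. Aub and vas then kept NURF301 in 3 of 3 knockdown libraries and AGO3 in 1, against 3 of 3 in mock and in mock2. Nos then had it in 0 of 3, against 2 of 3 in mock and in mock2. The su(Hw) knockdown lists held 1819 to 2027 NURF301 peaks.

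Within 500 bp of the gene, CP190 stayed at these 3 genes and at the other bound members after su(Hw) knockdown. Piwi, vas, osk, nos, bam, bgcn, cuff and del had a CP190 peak in 3 of 3 knockdown libraries, against 6 of 6 mock libraries for each. Piwi, the member without CP190 in the Nurf301 knockdown, had folds of 15.4, 15.8 and 24.4 here, against 19.5, 16.1 and 12.1 in mock and 34.3, 22.9 and 34.3 in mock2. At bam the CP190 folds were 16.2, 14.3 and 36.4 in the knockdown, against 8.91, 9.92 and 5.74 in mock and 40.1, 22.9 and 31.5 in mock2. At cuff they were 4.94, 3.75 and 6.81 in the knockdown, against 7.62, 8.31 and 7.42 in mock and 7.32, 4.83 and 8.17 in mock2. With no margin piwi, vas, osk, bgcn and del kept CP190 in 3 of 3 libraries, bam in 2, nos in 1 and cuff in 0, against 6 of 6 mock libraries for all of these but cuff (5) and nos (3). By the Fisher exact test 30.8% of 2938 genes tested were lost and 0.0681% gained. AGO3 was the only member tested, with CP190 in 0 of 3 knockdown and 3 of 6 mock libraries. At that mock count a loss could not pass (Fisher exact p = 0.464). The bound members, with a peak in every library, could not be tested. No member was called, but none could have been called lost. Of the genes bound by CP190 in mock cells 59.6% had a peak in every knockdown library and 22.6% in none. The outer site beside bam had no peak of Su(Hw) or CP190 in any su(Hw) knockdown library, against 6 of 6 mock libraries for each.

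Su(Hw) itself had no peak within a member window after its knockdown and one at vas in 3 of 6 mock libraries (Fisher exact p = 0.464). At that mock count a loss could not pass, and no other member was tested. Of all 2184 genes tested 83.3% were called lost. With windows of 1000 bp, chosen after seeing the data, vas had a Su(Hw) peak in 0 of 3 knockdown and 6 of 6 mock libraries and was called.

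**Figure D3:**
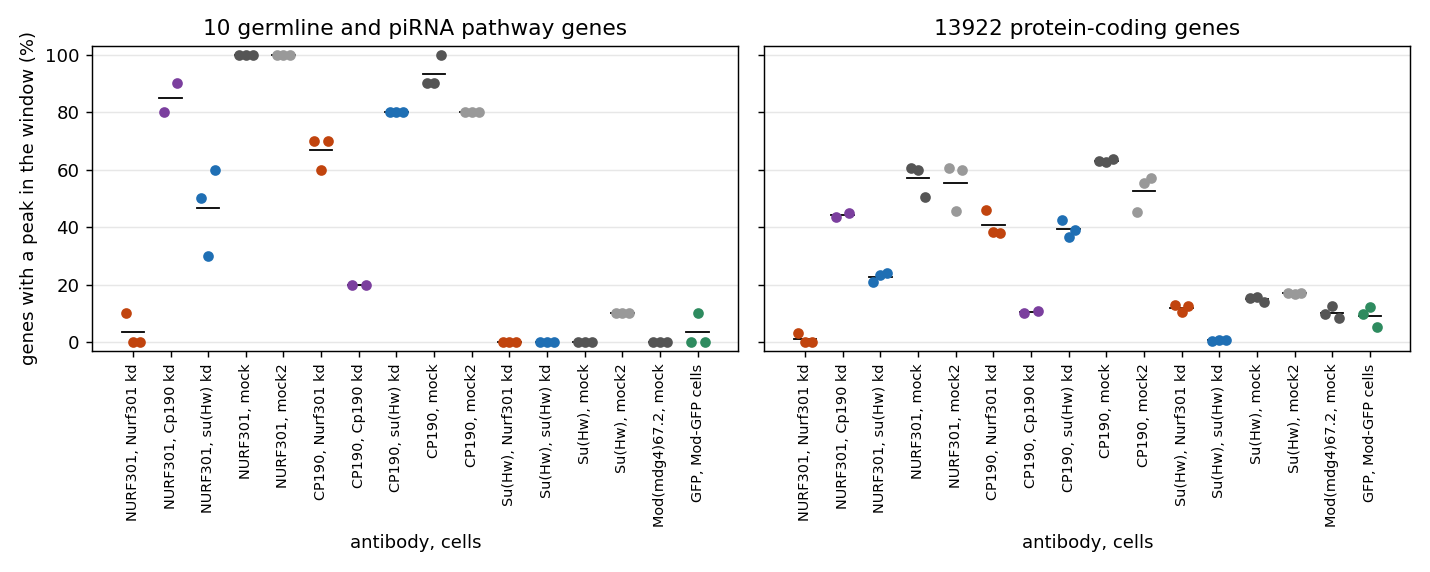
Percent of genes with a peak in their window in each library (points; the line is the group mean), for the 10 germline and piRNA pathway genes on the left and for 13922 protein-coding genes on the right. CP190 reached 8 of the 10 genes in each su(Hw) knockdown library, and NURF301 3 to 6 of them.

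**Figure D4:**
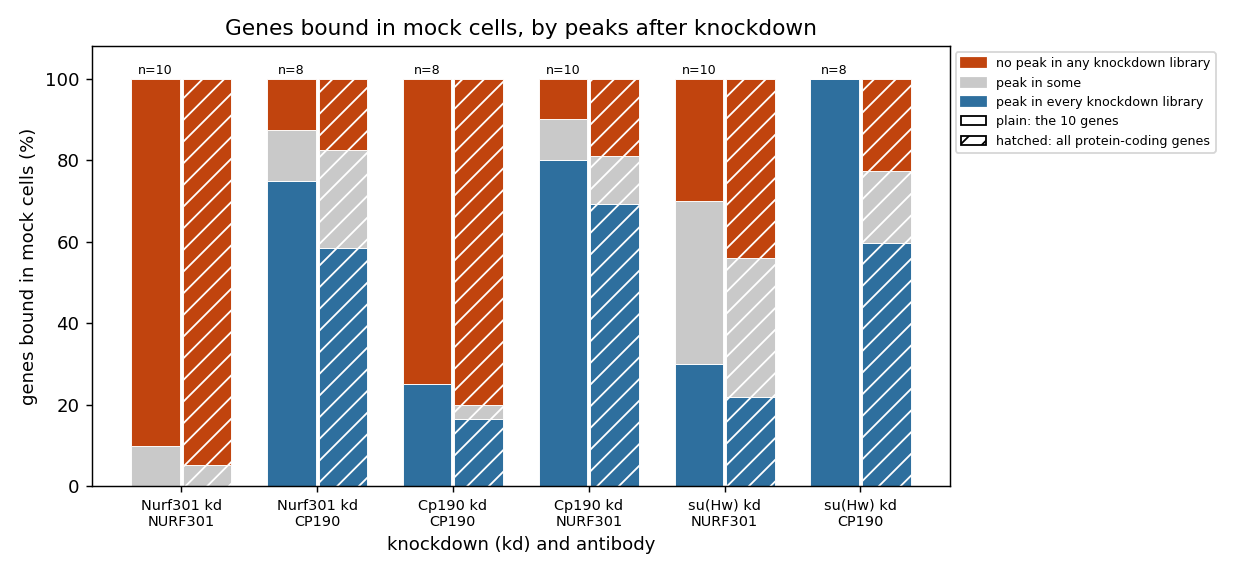
Genes bound in mock cells, split by whether they had a peak in none, some or every library of a knockdown, in percent, for the members (plain bars, n above) and all protein-coding genes (hatched). After su(Hw) knockdown 8 of 8 members kept CP190 in every library, and after Cp190 knockdown 2 of 8 did.

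The other genes of these pathways were taken from 5 lists of 48 genes, of which 47 were found in the annotation. In mock cells NURF301 was bound at 45 of the 47 and CP190 at 43, each of which also had NURF301, beside 58.8% and 57.0% of all genes. The NURF301 exceptions were moon and otu, named here after their values were seen, which had no peak of any antibody. Su(Hw) was bound at 9 of the 47 (15.5% of all genes) and Mod(mdg4)67.2 at 7 (9.73%). A gene was tested only where its number of libraries with a peak could give a Fisher exact p below 0.05. Shares of genes tested, given below, leave out the other genes, while counts of listed genes include them.

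Among partners of the Argonaute proteins, all 5 carried NURF301 and CP190. Qin, a Tudor protein that acts with Aub and AGO3, was the only one with Su(Hw), in 6 of 6 mock libraries and 0 of 3 of the su(Hw) knockdown (Fisher exact, adjusted p = 0.0143). Its CP190 peak was in 0 of 2 Cp190 knockdown and 6 of 6 mock libraries (Fisher exact, adjusted p = 0.0366), and so were those of krimp, papi and spn-E. Tej kept CP190 in 2 of 2. Papi also lost NURF301 in the su(Hw) knockdown, with 0 of 3 against 6 of 6 (Fisher exact, adjusted p = 0.0271). It was the only such call among the 5, of which tej and spn-E could not be tested, beside 43.9% of the genes tested.

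Of the 14 biogenesis genes all carried NURF301, 13 carried CP190 and 0 carried Su(Hw). Zuc, whose product is the endonuclease of primary piRNA production, and vret kept NURF301 in 3 of 3 su(Hw) knockdown libraries, against 6 of 6 in mock cells. Armi, which encodes a helicase, and squ and Hen1, which encodes the piRNA methyltransferase, kept it in 2 of 3. Shu, a cochaperone gene, had NURF301 in 0 of 3 and in 4 of 6 mock libraries, which did not pass (Fisher exact, adjusted p = 0.176). In the su(Hw) knockdown NURF301 was called lost at 3 of the 14, BoYb, tapas and mino, beside 43.9% of the genes tested. Zuc, vret, armi, squ and Hen1 were among those that could not be tested there. CP190 was called lost at 11 of the 14 in the Cp190 knockdown, beside 97.7% of the genes tested. The rest of the 14 could not be tested in that comparison. In the other knockdowns CP190 was called lost at 0. As for the members, the CP190 calls in the Cp190 knockdown end when mock replicate 1, 2 or 3 of CP190 is left out.

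In the nuclear group, 8 of 9 genes found carried both proteins. Panx, nxf2 and arx, whose products silence transcription together with Piwi, each had NURF301 in 0 of 3 su(Hw) knockdown and 6 of 6 mock libraries (Fisher exact, adjusted p = 0.0271). With wde, 4 of the 9 were called lost in this way, beside 43.9% of the genes tested. The rest of the 9 could not be tested in this comparison. Rhi, which encodes the partner of Cuff and Del at piRNA clusters, had NURF301 in 1 of 3 and 6 of 6. In the Nurf301 knockdown, CP190 was present at Panx and arx in 3 of 3 libraries, at egg and rhi in 2, at nxf2 in 1 and at nxf3 in 0. In mock cells Panx, arx and egg had it in 6 of 6 libraries and the other 3 in 5 of 6.

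Besides qin, Su(Hw) was bound at 4 of 13 pole plasm and 4 of 6 differentiation genes, beside 15.5% of all genes. Bru1, a translational repressor of osk, and mei-P26, Sxl, brat and Rbp9 each had Su(Hw) in 0 of 3 su(Hw) knockdown and 6 of 6 mock libraries (Fisher exact, adjusted p = 0.0143), as did orb. Mei-P26 and Rbp9 were the only listed genes that lost CP190 in the su(Hw) knockdown, with 0 of 3 against 6 of 6 (Fisher exact, adjusted p = 0.0386). Both calls end when su(Hw) knockdown replicate 1, 2 or 3 of CP190 is left out, and with the replicate block. In each of these settings 0 genes were called. Sxl, brat and bru1 kept CP190 in 3 of 3 libraries. Without Su(Hw), tud, gcl and stau carried NURF301 and CP190 in 6 of 6 mock libraries and kept CP190 in 3 of 3 libraries of the Nurf301 knockdown. Vls, also without Su(Hw), had CP190 in 1 of 3, against 6 of 6 in mock cells. Ovo, csul and zpg, further pole plasm genes without Su(Hw), are named here after their values were seen. Zpg kept CP190 in 3 of 3, while ovo and csul had it in 0 of 3, against 6, 6 and 5 of 6 mock libraries. Over all 47 genes the calls of loss were 37 for NURF301 in the Nurf301 knockdown (72.8% of all genes tested) and 30 for CP190 in the Cp190 knockdown (97.7%). In the su(Hw) knockdown they were 9 for Su(Hw) (83.3%), 13 for NURF301 (43.9%) and 2 for CP190 (30.8%). The 47 include genes that could not be tested, which these shares leave out. The calls were 0 for CP190 and Su(Hw) in the Nurf301 knockdown and for NURF301 in the Cp190 knockdown. No listed gene was called gained in any of the 8 comparisons.

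Genes with the most similar pattern were sought by the mean absolute difference in the percentile of the strongest peak over all 46 lists, with 0 for no peak. Piwi was nearest to Srg3 (3.38 percentile points; the same presence in 43 lists) and CG4702. AGO3 was nearest to BckdhB (2.41; 44 lists) and pie, and osk to Cftr (4.52; 45 lists) and CG7798. Bam was nearest to CG1648 (4.54; 45 lists) and CG5966. For vas the nearest genes, Polr1H and tsl, were 10.1 percentile points away with the same presence in 38 lists, so vas had the least matched pattern of the 10. The other members were 4.92 to 7.22 points from their nearest gene, and the next gene is named beside it: aub from CG10376 and CG10343, nos from CG33228 and su(sable), bgcn from CG6707 and CG46387, cuff from CG10859 and CG7110, and del from CG8460 and Ubc2. The lists share antibodies and mock libraries, so this is a description.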

How the data were processed

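Peaks came from 46 ChIP-seq libraries in 16 groups of the 63 samples; the other 17 samples are inputs and were not used here. The authors called peaks in each library. MACS2 2.2.7.1, Picard 2.25.2, Bowtie2 2.4.2 and SAMtools 1.12 stand in the submitters' processing notes. Their settings, control and genome build are not given in the sources used here. Each deposited list gives a score, a fold enrichment (a linear ratio), the -log10 p and the -log10 q of each peak, all the authors' values. The sequence names fit Release 6: of NURF301 mock summits 66.8% lay within 500 bp of an end of a RefSeq gene, against 20.1% when shifted by 20 kb. The annotation gives no strand, so gene ends were used in place of starts. RefSeq lists nos as nanos. Promoter sequence was not used here, and no sequence is printed.

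Libraries were compared by peak presence per gene with a two-sided Fisher exact test, each knockdown against all 6 mock libraries. Adjustment was by Benjamini-Hochberg over all genes whose total could reach 0.05, and a call needed an adjusted p under 0.05. Against the 3 mock libraries with matching titles p could not go below 0.1. Replicate lists shared at most 1.22% of their intervals. Same-numbered libraries did not deviate together (correlations -0.212 to 0.0679 over 22 pairs), so the numbers were not taken as pairs. All 10 members are named. Pathway genes are named where at least 2 proteins were bound or a call was made, at most 6 per list in list order. Beyond this rule, BoYb, tapas, mino and wde are named because they were called lost. Moon, otu, ovo, csul and zpg are named after their values were seen. The members, lists and tests were chosen with earlier results of these data known. Alternatives were a -log10 q of at least 20, summits in place of peaks, no margin, 1000 bp, each library left out, the 2 shortest mock lists left out and a replicate block. Python 3.11.15, numpy 2.4.6, pandas 2.3.3, scipy 1.17.1 and matplotlib 3.10.9 were used, and the test was tried on simulated data.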

Additional observations from a re-analysis of the deposited data

How the results depend on the processing

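The number of bound members was the same under every setting run except for CP190, with 7 in place of 8 when summits were counted or with no margin, and for Su(Hw), with 1 in place of 0 at 1000 bp. Differences in members with a peak per library (knockdown minus mock) moved with the margin: with none they were -8.5 for NURF301 and -4.33 for CP190 in the Nurf301 knockdown, -3.83 for NURF301 in the Cp190 knockdown, and -5.5 for NURF301 and -2.0 for CP190 in the su(Hw) knockdown. With a -log10 q of at least 20 they were -3.17 for NURF301 in the Cp190 knockdown and -7.67 in the su(Hw) knockdown, where 2675 genes were called in place of 1678. Counting summits gave -5.83 for CP190 in the Cp190 knockdown, and 1000 bp gave -1.17 for Su(Hw) in the su(Hw) knockdown. With each library left out these differences ran from -10.0 to -9.5, -2.17 to -1.67 and -0.6 to -0.4 (NURF301, CP190 and Su(Hw) in the Nurf301 knockdown), -6.8 to -6.4 and -2.0 to -1.0 (CP190 and NURF301 in the Cp190 knockdown) and -0.6 to -0.4, -6.0 to -4.5 and -0.8 to -0.4 (Su(Hw), NURF301 and CP190 in the su(Hw) knockdown). Genes called, in the same order, ran from 5745 to 6618, 0 to 1081, 0 to 250, 0 to 5992, 0 to 0, 1820 to 1952, 1678 to 2484 and 0 to 1501. Members called over all settings that left out a library were 9 or 10 for NURF301 in the Nurf301 knockdown, 3 to 5 for NURF301 in the su(Hw) knockdown, 0 or 6 for CP190 in the Cp190 knockdown, and 0 or 1 for CP190 in the Nurf301 knockdown. With the q threshold, summits or other margins they were 5 to 9, 0 to 4, 5 or 6 and 0 in the same order. Leaving out the 2 shortest mock lists, chosen after seeing the data, gave 1309 genes for CP190 in the Nurf301 knockdown, and 3604 for NURF301 and 1726 for CP190 in the su(Hw) knockdown. With the replicate block 0 genes were called for Su(Hw) in the Nurf301 knockdown and for CP190 in the su(Hw) knockdown, and no member's call changed. No paired analysis was possible for the Cp190 knockdown because its 2 pairs leave no gene testable. Fits against the matching mock series, and those without a Cp190 knockdown library, likewise left no gene testable. Apart from these fits, the causes of the changes were not tested. Without read depths, a missing peak means not detected at the depth of that list.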
